A study of Mus musculus with 9 samples.

Results

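Dense clusters of Stat5 regions are stretches of the mouse genome where Stat5a and Stat5b peaks lie close together. The 6 deposited peak lists were joined where peaks overlapped, mitochondrial DNA was left out, and joined regions found in at least 2 lists were kept unless reads were heaped on 1 position. Kept regions no more than 10 kb apart were linked into chains, and chains of 5 or more regions were taken as dense. This gave 208 dense chains with 1330 regions, out of 16023 kept regions in 11296 chains of any size and 43766 nuclear regions in all. The members were thus chosen by the peak lists of the same libraries that are counted below. Their number, spacing, height and change between stages are therefore descriptions and not findings.

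Stat5a and Stat5b are closely related transcription factors that are phosphorylated by JAK kinases downstream of IL-2 and other cytokine receptors, and then move into the nucleus and bind DNA. In helper T cells they are known for control of IL-2 target genes and for their part in Th2 differentiation, in which naive helper cells acquire the capacity to make IL-4. A pair of Stat5 dimers bound at neighbouring sites can form a tetramer. Genes that respond to cytokines often have several enhancers, so bound regions near them can come in groups.

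The study mapped binding by ChIP-seq, in which DNA pulled down with an antibody is sequenced, in CD4+ T cells of the mouse. Cells had gone through 8 h, 13 h or 2 rounds of Th2 culture. Stat5a, Stat5b and an IgG control were each sequenced once per stage, which gives 9 libraries of 3130228 (Stat5a, 8 h) to 9036070 (Stat5b, 13 h) mapped reads. Strain, age, cytokines and antibodies to the receptor are not given in the labels, and no gene expression was measured, so the cell type could not be checked against markers. With 1 library per antibody and stage there is no replicate check: ratios compare these libraries, not the conditions, and intervals and limits cover counting error only. Levels are in RPM, reads per 1000000 reads of the library. Ratios carry exact conditional 95% intervals. To be called higher or lower, a region needed an interval wholly above 2 or below 0.5. Positions are in the mm8 build, and since no mm8 genome or gene annotation was at hand, clusters are named by position, no sequence is shown, and their genes were not analysed here.

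One chain stood apart before any comparison. The chain with the most regions, 21, lay at chr9:2999924-3038532, with Stat5a at 1190, 1194 and 1079 RPM at 8 h, 13 h and after 2 rounds. Stat5b gave 839, 1152 and 703 RPM there, and IgG gave 988, 1244 and 1279 RPM. Its IgG level was above both antibodies at 13 h and after 2 rounds. This chain held 2.32% of the Stat5a reads and 6.14% of the IgG reads in kept regions at 8 h. The reason was not tested, and results that rest on it are given with and without it.

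The other 207 chains were mostly small. There were 91 chains of 5 regions and 56 of 6, and 15 of all 208 chains, that of chromosome 9 included, had 10 or more. Just outside the threshold lay 199 chains of 4 regions, of which 30 had a further kept region within 12 kb. Dense chains were found on 20 chromosomes, with 22 on chromosome 1, 20 on chromosome 9, 18 on chromosome 11 and 1 on the X chromosome. The median chain spanned 22.7 kb, from 5.05 to 52.8 kb, and regions covered a median of 21.6% of the span. Within chains the median gap was 2704 bp, against 29.3 kb between neighbouring kept regions anywhere. The widest gap inside a chain was 9998 bp and the narrowest gap over the limit was 10006 bp. A further 407 regions found in 1 list lay inside the spans, and 250 of these came from the list of Stat5b after 2 rounds.

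Members had a listed peak at 8 h more often than isolated regions did. A peak of either factor at 8 h lay in 725 member regions (54.5%), against 25.7% of the 8458 regions with no neighbour within 10 kb, called single regions here. The share was 36.5% in chains of 2 to 4 regions, 44.2% in chains of 4 and 52.7% in chains of 5. It thus rose with chain size on both sides of the threshold. At 13 h the shares were 80.6% and 72.1%, and after 2 rounds 93.5% and 94.6%. All 3 stages had a peak in 564 members (42.4%) and in 17.7% of single regions. All 6 lists held 229 members (17.2%) and 3.94% of single regions. In the median chain 3 regions carried a peak at 8 h, 5 at 13 h and 5 after 2 rounds. At 8 h, 10 chains had no listed region and 51 had 5 or more. By 13 h, 131 chains had 5 or more listed regions, and after 2 rounds 186 had. The lists differ in length, from 3990 peaks (Stat5b, 8 h) to 33692 (Stat5b, 2 rounds), so a gain of listed regions and a longer list cannot be told apart here.

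**Figure D1:**
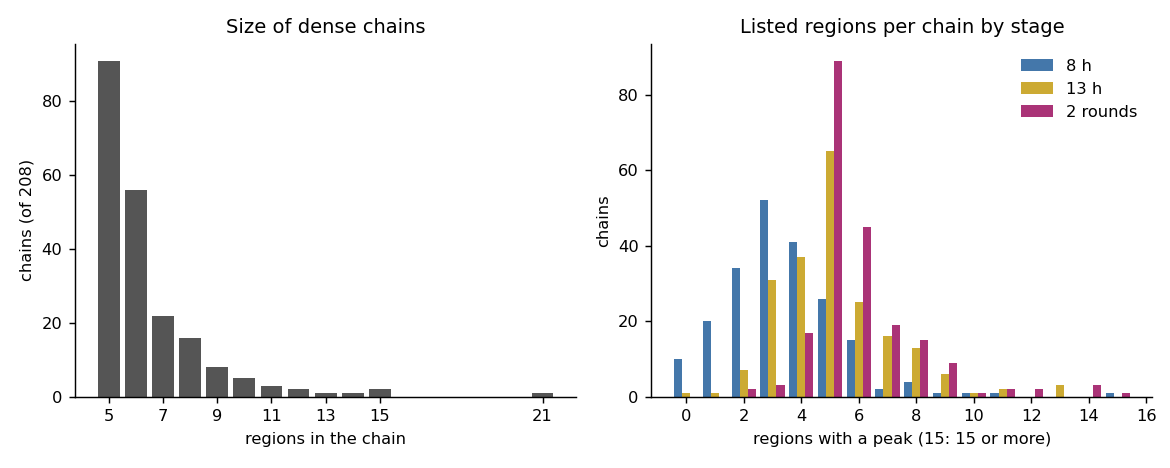
Left, number of dense chains by the number of regions in the chain. Right, number of chains by how many of their regions carried a Stat5a or Stat5b peak at each stage, with chains of 15 or more listed regions joined at 15; the bars move to the right from 8 h (median 3 regions) to 13 h and 2 rounds (median 5 each).

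Member regions also held more reads than single regions, at each of the 3 stages. For Stat5a the median member had 3.51 RPM at 8 h, 2.65 at 13 h and 3.76 after 2 rounds, where single regions had 1.60, 1.68 and 2.41 RPM. For Stat5b the median member had 1.60, 3.54 and 7.05 RPM, and the median single region 1.02, 2.32 and 5.49 RPM. Regions in chains of 4, just under the threshold, had medians between these, at 2.88, 2.17 and 3.16 RPM of Stat5a and 1.46, 2.99 and 6.27 RPM of Stat5b. Chains of 5 had 2.88, 2.41 and 3.31 RPM of Stat5a and 1.46, 3.21 and 6.27 RPM of Stat5b. IgG medians in members were 0.641 RPM at 8 h, 0.664 at 13 h and 0.864 after 2 rounds, and in single regions 0.481, 0.532 and 0.691 RPM. Members were somewhat wider, with a median of 745 bp against 680 bp. Per kb of region, the median member had 4.52 RPM of Stat5a at 8 h against 2.28 in single regions, and 8.91 RPM of Stat5b after 2 rounds against 7.57. Without the chromosome 9 chain the member medians of Stat5a were 3.51, 2.53 and 3.61 RPM and those of Stat5b 1.60, 3.54 and 6.92 RPM.

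Levels in the libraries of one antibody were next read in chains built from the lists of the other alone. The 3 Stat5a lists gave 27 chains with 162 regions, 147 of which overlapped members, and in these the median Stat5b level was 2.77 RPM at 8 h, 5.98 at 13 h and 12.1 after 2 rounds. Single regions of the same lists had 1.31, 3.32 and 6.79 RPM of Stat5b. The 3 Stat5b lists gave 75 chains with 469 regions, all overlapping members, where the median Stat5a level was 4.15, 3.25 and 4.21 RPM, against 2.24, 2.17 and 2.56 RPM in single regions. Without the chromosome 9 chain, 147 and 463 regions remained, with medians of 2.33, 5.31 and 11.2 RPM of Stat5b and 4.15, 3.25 and 4.21 RPM of Stat5a. Clustered regions were thus higher in the median than single regions also in the antibody that had not chosen them, at each of the 3 stages. IgG was higher there too, at 0.801 RPM in the Stat5a chains (0.641 without the chromosome 9 chain) against 0.320 in single regions at 8 h, and at 0.801 against 0.641 RPM for the Stat5b lists. Without that chain, IgG in the Stat5a chains was 0.664 RPM at 13 h and 0.691 after 2 rounds, against 0.399 and 0.518 RPM in single regions. For the Stat5b lists it was 0.797 and 1.04 RPM against 0.664 and 0.864 RPM. How far this carries over to the ChIP levels was not tested.

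Most dense chains stood above IgG at every stage. Summed over its regions, a chain had a median of 6.07 times the IgG level for Stat5a at 8 h, 4.01 at 13 h and 4.95 after 2 rounds. The medians for Stat5b were 2.81, 5.70 and 9.88. In 181 of 208 chains the interval lay above 1 in all 6 ChIP libraries. Stat5b at 8 h had the most exceptions, 26 chains whose interval did not lie above 1. Stat5b after 2 rounds exceeded IgG by over 2-fold in 207 chains, all but the one at the start of chromosome 9. The peaks had been called from these ChIP libraries, so the excess is no test of binding.

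**Figure D2:**
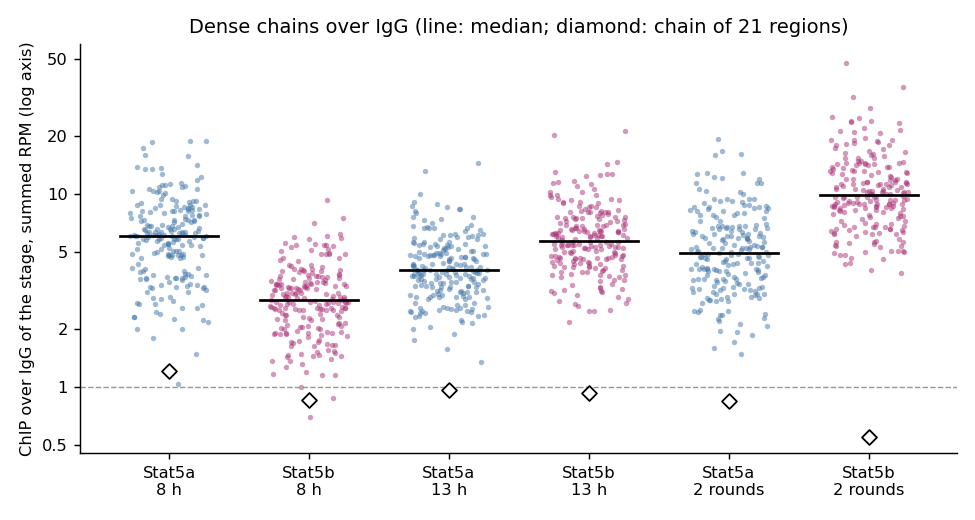
Level of each dense chain over the IgG library of its stage, as a ratio of summed RPM on a log axis, for the 6 ChIP libraries. Dots are chains, black lines the medians (2.81 for Stat5b at 8 h, 9.88 for Stat5b after 2 rounds), and the diamond is the chain of 21 regions at the start of chromosome 9, which lies below 1 in 5 of the 6 libraries.

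The 1330 members took 1.59% of all Stat5b reads after 2 rounds (95% Wilson interval 1.59 to 1.60), against 0.265% of IgG reads. At 8 h they took 0.787% of Stat5a and 0.394% of Stat5b reads, with IgG at 0.206%. At 13 h the shares were 0.617%, 0.826% and 0.241%. Without the chromosome 9 chain the IgG shares were 0.107%, 0.117% and 0.137%, and the Stat5b share after 2 rounds was 1.52%. That chain alone held 0.0988% of IgG reads at 8 h.

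The cluster with the most reads above IgG at each of the 3 stages lay at chr9:107152367-107172446, with 7 regions in 20.1 kb, of which regions covered 68.9%. Stat5a measured 186, 179 and 271 RPM there at 8 h, 13 h and after 2 rounds, Stat5b 82.6, 242 and 598 RPM, and IgG 15.2, 23.5 and 16.8 RPM. One region, chr9:107153387-107156833, carried 322 of the 598 RPM of Stat5b after 2 rounds. Its Stat5b level had been 41.1 RPM at 8 h and 119 at 13 h, with ratios of 2.90 (2.54 to 3.32) and 2.70 (2.52 to 2.91) for the 2 steps. Stat5a in this region measured 94.6, 87.8 and 139 RPM. Regions at 12.7 and 17.8 kb into the cluster held 142 and 87.5 RPM of Stat5b after 2 rounds. The first region, directly beside the leading one, held only 4.70 RPM.

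In the cluster at chr2:11533859-11581322 the reads were spread more evenly over its 14 regions. Stat5a measured 189, 145 and 201 RPM, Stat5b 80.5, 192 and 335 RPM and IgG 20.7, 19.5 and 25.7 RPM at the 3 stages. The highest Stat5b region after 2 rounds, at chr2:11558937-11561042, held 55.1 RPM. Neighbouring regions followed different courses. At chr2:11534496-11535493 Stat5b measured 3.35, 16.3 and 51.3 RPM, with ratios of 4.86 (3.12 to 7.90) and 3.16 (2.60 to 3.84). In the second region after it, at chr2:11540348-11541593, it measured 4.51, 17.5 and 8.49 RPM, and the second ratio was 0.485 (0.358 to 0.652). At chr2:11572730-11573988 it measured 13.0, 27.9 and 27.9 RPM, with a second ratio of 1.0 (0.831 to 1.21). Stat5a in those 3 regions measured 18.2, 7.52 and 22.3 RPM after 2 rounds.

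Other large clusters were led by 1 or 2 regions. At chr16:10660970-10702654, with 15 regions, Stat5b measured 41.1, 112 and 314 RPM, and 124 of the last came from chr16:10685041-10686553. At chr17:34797677-34850430, also of 15 regions, Stat5b measured 47.5, 113 and 295 RPM and Stat5a 92.0, 73.2 and 79.0 RPM. There chr17:34812280-34813817 held 156 RPM of Stat5b after 2 rounds, while its Stat5a level was 38.7, 34.8 and 29.5 RPM. Of its other 14 regions, the highest reached 29.9 RPM of Stat5b. At chr1:108412837-108448595, with 9 regions, Stat5a measured 131, 81.1 and 130 RPM and Stat5b 51.6, 117 and 254 RPM. Regions at 20.8 and 26.8 kb into it held 82.1 and 84.5 RPM of Stat5b after 2 rounds.

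**Figure D3:**
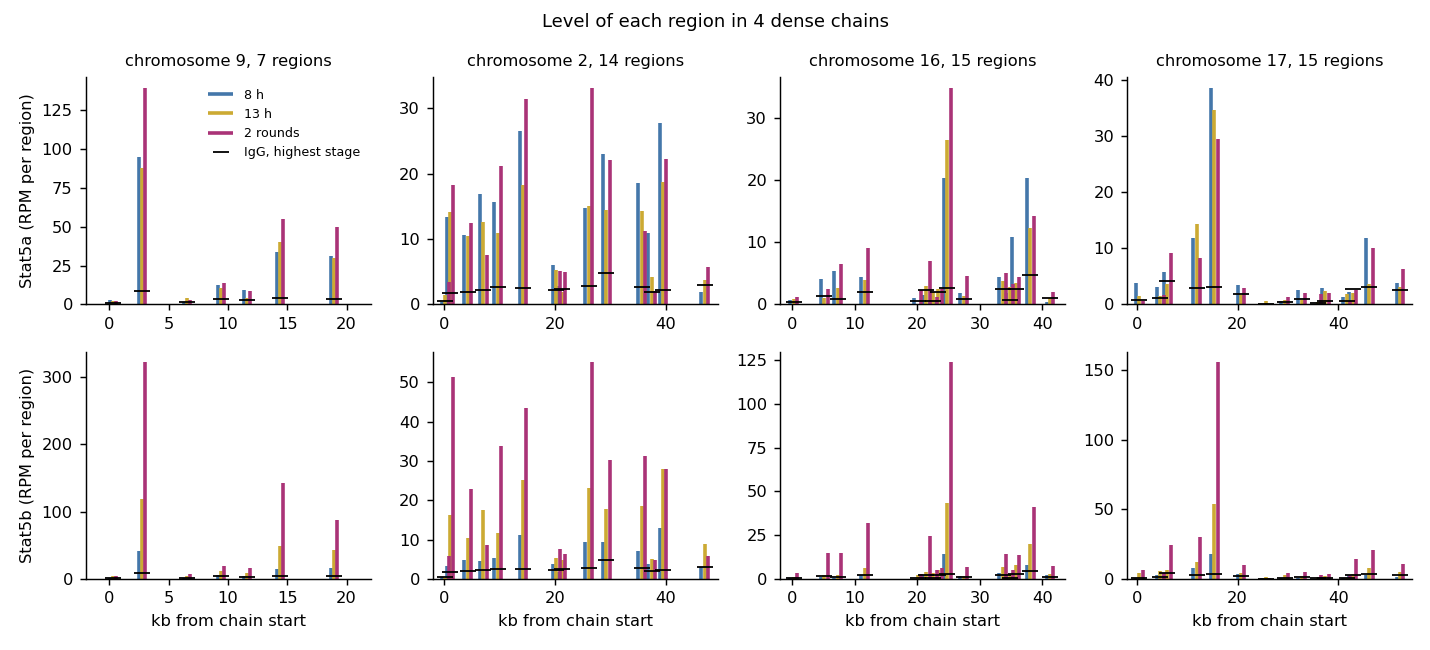
Level of each region in RPM for Stat5a (upper row) and Stat5b (lower row) against distance from the chain start in kb, in 4 of the 5 clusters with the most reads above IgG after 2 rounds. Vertical lines are the 3 stages and black dashes the highest IgG level of the region. For Stat5b after 2 rounds, a single region dominates on chromosomes 9 and 17. On chromosome 16 the highest region held 124 of 314 RPM, and reads are spread over many regions on chromosome 2.

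The share of a chain's reads that its leading region held varied. In the 207 chains without the one at the start of chromosome 9, the region with the most reads above IgG held a median of 37.5% (Stat5b, 13 h) to 42.9% (Stat5b, 8 h) of the chain's excess over IgG, depending on the library. It held over 50% in 45 (Stat5b, 2 rounds) to 63 (Stat5b, 8 h) of these chains. A region with the most reads exists in any chain, and no expected share was computed. Stat5a and Stat5b had the same leading region in 130 of 208 chains at 8 h, 144 at 13 h and 138 after 2 rounds. The leading region of Stat5a was the same at all 3 stages in 87 chains, and that of Stat5b in 89. In 66 chains 1 region led in all 6 libraries. The leading region was at an end of the chain in 59 to 62 of the 207 chains, where the ends' share of the regions would give 69.6. End regions were slightly lower than inner ones, with a median of 6.60 RPM of Stat5b after 2 rounds against 7.05, and 27.1% against 32.8% were in 5 or 6 lists.

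From 8 h to 13 h Stat5b levels were higher in nearly all clusters, while Stat5a levels were lower or did not clear the counting error in most. For Stat5a, 29 of 1330 members were called lower and 4 higher, where 1.96% and 0.468% of all kept regions were. The members' shares, 2.18% and 0.301%, were near that background. For Stat5b, 183 members (13.8%) were called higher and 0 lower, where 10% and 0.0187% of kept regions were. Without the chromosome 9 chain the counts were 29 and 4 for Stat5a and 182 and 0 for Stat5b. Among the IgG libraries 3 members were called higher and 7 lower, where 0.362% and 0.624% of kept regions were. When each library pair was scaled to the median ratio of all kept regions (0.879 for Stat5a and 2.25 for Stat5b), the share of calls that were higher went from 12.1% to 36.4% for Stat5a and from 100% to 18.8% for Stat5b. Relative to that median, 3 members were higher and 13 lower for Stat5b.

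Summed over their regions, dense chains had a median Stat5a ratio of 0.767 from 8 h to 13 h, from 0.380 to 2.35. The interval lay below 1 in 99 chains and above 1 in 4. The median Stat5b ratio was 2.27, from 1.12 to 5.12, with the interval above 1 in 204 chains and above 2 in 58. In 96 chains Stat5a lay below 1 and Stat5b above 1, and the opposite held in 0 chains. Scaled to the median of kept regions, the medians were 0.873 for Stat5a, with 73 chains below 1 and 11 above, and 1.01 for Stat5b, with 26 below and 34 above and 0 past 2. The opposite directions thus hold on the scale of reads per library. The IgG median was 1.09, with 27 chains above 1 and 9 below. With each start counted once, the medians were 0.770 and 1.98, with 78 chains below 1 for Stat5a and 19 chains above 2 for Stat5b. In Stat5a at 13 h 38.0% of the reads were 24 bp long, and at 8 h none were. With 25 bp reads alone the Stat5a median was 0.929, with 48 chains below 1 and 11 above. The Stat5b libraries held 25 bp reads alone.

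Clusters differed in how far they moved in this step. At chr6:129174277-129203892, with 9 regions, Stat5a measured 114 RPM at 8 h and 56.1 at 13 h, a ratio of 0.493 (0.429 to 0.568), while Stat5b measured 45.9 and 87.5 RPM. The smallest Stat5a ratio, 0.380 (0.289 to 0.499), was at chr1:97474004-97504485, where Stat5a measured 35.1 and 13.4 RPM and Stat5b 10.8 and 19.6 RPM. It was the only chain whose interval lay below 0.5, and with each start counted once its ratio was 0.48 (0.34 to 0.69). At chr1:173794000-173819276 Stat5a measured 42.2, 16.6 and 15.2 RPM, with a first ratio of 0.394 (0.308 to 0.504) that reached just past the threshold. Stat5b in that cluster measured 17.6, 36.7 and 33.8 RPM.

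From 13 h to 2 rounds both factors were higher in most clusters. The lists of the later stage took part in the choice of members. Of the members, 91.8% had a peak of Stat5b after 2 rounds, and 157 (11.8%) had peaks after 2 rounds alone. A rise in this step is thus not independent of the choice. For Stat5a, 141 members (10.6%) were called higher and 9 lower, where 13.4% and 1.06% of kept regions were. For Stat5b, 312 members (23.5%) were called higher and 5 lower, where 28.4% and 0.412% of kept regions were. The members' shares of higher calls lay below the background for both factors. Leaving out the chromosome 9 chain changed none of these 4 counts. Among the IgG libraries 14 members were called higher and 3 lower, where 1.01% and 0.150% of kept regions were. Scaled to the median ratio of all kept regions (1.40 for Stat5a and 2.25 for Stat5b), the share of calls that were higher went from 94.0% to 64.1% for Stat5a and from 98.4% to 35.8% for Stat5b. On that scale 44 members were higher and 79 lower for Stat5b.

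Calls depend on depth, and members hold more reads than single regions. Among regions with 60 or more reads in whichever library of the pair had more there, Stat5b was called higher after 2 rounds in 36.5% of 617 members and in 48.8% of 2634 single regions, with median ratios of 2.33 and 2.87. With 30 to 59 reads, 69 of 430 members were called higher, against 24.7% of single regions. From 8 h to 13 h the Stat5b shares at 60 or more reads were 28.1% and 27.8%. For Stat5a after 2 rounds they were 18.5% and 41.9%, with median ratios of 1.70 and 2.42. These shares are descriptions, and their differences were not tested. The chromosome 9 chain is left out of these shares and ratios. The 2 classes also entered through the lists unequally: 22.7% of single regions and 11.8% of all members had peaks after 2 rounds alone. Their contrast in the step to 2 rounds is thus not independent of the choice of regions.

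**Figure D4:**
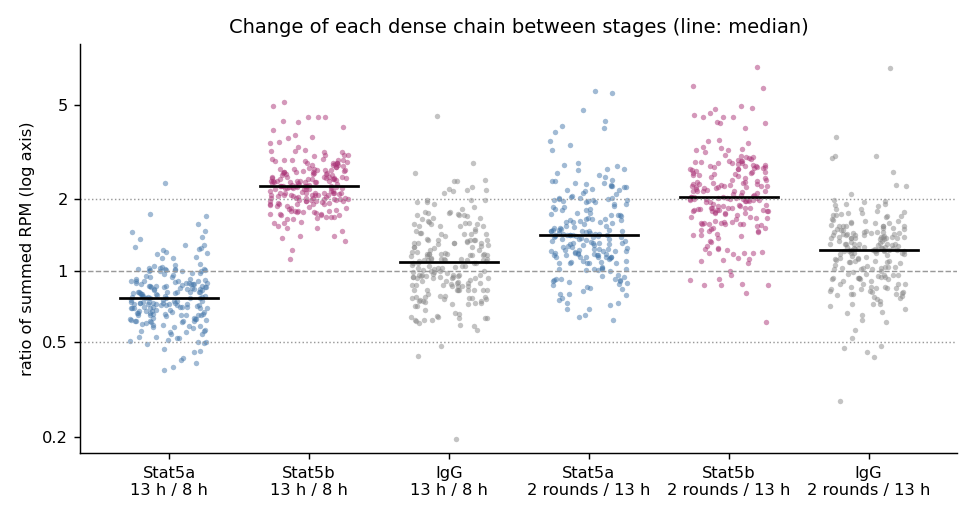
Ratio of summed RPM between consecutive stages for each dense chain (dots) on a log axis, with medians as black lines, for Stat5a, Stat5b and IgG. Dotted lines mark ratios of 2 and 0.5; from 8 h to 13 h the Stat5a median is 0.767 and the Stat5b median 2.27, and from 13 h to 2 rounds they are 1.41 and 2.03.

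Summed over chains, the median ratio from 13 h to 2 rounds was 1.41 for Stat5a (0.618 to 5.68) and 2.03 for Stat5b (0.610 to 7.19). The interval lay above 1 in 132 chains for Stat5a and in 189 for Stat5b, and in 129 for both. It lay below 1 in 8 chains for Stat5a and in 1 for Stat5b, the one at the start of chromosome 9. With 25 bp reads alone the Stat5a median was 1.27, with 97 chains above 1 and 21 below. The IgG median was 1.22. Scaled to the median of kept regions, the chain medians were 1.0 for Stat5a, with 67 chains above 1 and 54 below, and 0.903 for Stat5b, with 55 above and 84 below. Stat5b over Stat5a had a median of 0.483 across chains at 8 h, 1.42 at 13 h and 2.02 after 2 rounds. The same ratio over all kept regions had medians of 0.521, 1.38 and 2.18. Antibodies and pull-down can differ in strength, so this ratio does not give the amount of either protein on DNA. Each stage had its own pull-down, so a change in binding over the stages and a change in pull-down cannot be told apart.

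A small set of clusters was low at 8 h and high after 2 rounds. At chr1:132704482-132732644, with 6 regions, Stat5b measured 5.10 RPM at 8 h, which was the level of IgG (5.13 RPM), then 26.1 RPM at 13 h and 188 RPM after 2 rounds. Its Stat5a level was 13.7, 23.3 and 79.0 RPM, and IgG at the later stages was 5.05 and 7.60 RPM. The Stat5b ratios were 5.12 (3.58 to 7.53) and 7.19 (6.26 to 8.28), and the cluster went from rank 197 of 208 by reads above IgG to rank 10. With each start counted once they were 4.19 and 6.36. Clusters at chr2:43960988-43989252 and chr11:53432928-53465886 followed a like course. Stat5b in the first measured 6.26, 20.7 and 124 RPM and Stat5a 17.9, 17.8 and 99.8 RPM. IgG there measured 4.33, 4.52 and 5.18 RPM. In the second Stat5b measured 6.99, 26.1 and 126 RPM and Stat5a 18.8, 17.9 and 73.0 RPM. IgG in the second measured 5.13, 4.78 and 10.9 RPM, with a last ratio of 2.28 (1.49 to 3.53), so that Stat5a over IgG was 3.75 at 13 h and 6.70 after 2 rounds, and Stat5b over IgG 5.46 and 11.6. In all 3 clusters at most 2 regions had a peak at 8 h, and all regions had one after 2 rounds. The cluster at chr9:13381882-13402873 was near those on chromosomes 2 and 11 in Stat5a RPM at 8 h, but stood further above IgG. Stat5a measured 20.4, 10.2 and 43.5 RPM, with ratios of 0.5 (0.357 to 0.703) and 4.25 (3.33 to 5.48), while Stat5b measured 6.99, 13.4 and 78.5 RPM. IgG there measured 1.28, 3.06 and 3.80 RPM, from only 8 reads at 8 h. Stat5a over IgG was 15.95, 3.35 and 11.4, where the clusters on chromosomes 2 and 11 had 4.14 and 3.68 at 8 h. With each start counted once the Stat5a ratios were 0.684 (0.432 to 1.10) and 3.53 (2.57 to 4.92), so the first no longer cleared 1.

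In a few clusters Stat5a measured less at each later stage, while Stat5b measured more than at 8 h. At chr3:115790600-115809440 Stat5a measured 21.1, 10.9 and 6.77 RPM and Stat5b 7.86, 13.3 and 10.7 RPM. The last Stat5a ratio there was 0.618 (0.423 to 0.893), and 6 of 6 regions had a peak at 8 h but 2 after 2 rounds. At chr14:121067317-121097712 Stat5a measured 40.9, 28.8 and 18.4 RPM while Stat5b measured 14.6, 30.9 and 33.8 RPM and IgG 5.45, 6.11 and 3.80 RPM. These levels rest on 66 and 128 Stat5a reads at 8 h. Stat5b in the chromosome 3 cluster rests on 54 reads at 8 h and 82 after 2 rounds, and no interval was computed for that pair. With each start counted once, the Stat5a ratios there were 0.690 (0.443 to 1.09) and 0.600 (0.365 to 0.963), so the first did not clear 1.

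Ratios differed between regions of 1 cluster. In the step to 2 rounds, 170 of 207 chains held at least 1 pair of regions whose Stat5b intervals did not overlap, and 150 did for Stat5a. From 8 h to 13 h the numbers were 85 for Stat5b and 104 for Stat5a, and for IgG they were 37 and 34. No allowance was made for the number of pairs in a chain or for the fewer reads of IgG. Between neighbouring regions of a dense chain, both with 30 or more reads in 1 library of the pair, the Stat5b ratios to 2 rounds differed by a median of 1.59-fold over 717 pairs (Spearman's rho of the ratios 0.298, across pairs that share libraries). Neighbours 10 to 50 kb apart differed by 1.78-fold over 2838 pairs (rho 0.176). For Stat5a in that step the medians were 1.96-fold and 2.03-fold, with rho of 0.229 and 0.261. Neighbours in chains of 2 to 4 differed by 1.70-fold for Stat5b (rho 0.316) and 1.79-fold for Stat5a (rho 0.417). A like course of neighbours was thus not particular to dense chains. Calls in opposite directions within a chain were found in 4 chains for Stat5b and 1 for Stat5a, all in the step to 2 rounds, and in 1 chain for IgG, from 8 h to 13 h. With each start counted once, none of these 5 chains of Stat5a and Stat5b kept calls in both directions. In the chr6:129174277-129203892 cluster, Stat5b at chr6:129194693-129195213 went from 43 reads to 8, a ratio of 0.220 (0.0892 to 0.472). At chr6:129198202-129199394 of the same cluster it went from 172 reads to 351, a ratio of 2.41 (2.0 to 2.91). At chr9:119928508-119929125 the reads were 56 and 10, and at chr9:119938800-119939560 in the same chain 6 and 43. With each start counted once, the first of these pairs had ratios of 0.230 (0.0782 to 0.561) and 2.01 (1.53 to 2.65), so neither passed the rule.

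The spaces between the regions of a chain hold no member, but they do hold the 407 regions found in 1 list and those left out as heaped. Over the 3.89 Mb between members, Stat5a stood at 1.62 times IgG (1.58 to 1.66) at 8 h, 1.33 (1.30 to 1.35) at 13 h and 1.38 (1.35 to 1.40) after 2 rounds. Stat5b stood at 1.19 (1.17 to 1.22), 1.55 (1.52 to 1.57) and 1.73 (1.70 to 1.76). Without the chromosome 9 chain the ratios were 1.69, 1.37 and 1.46 for Stat5a and 1.24, 1.62 and 1.89 for Stat5b.

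The spaces between regions still held an excess when every peak of any list and 500 bp around it were left out. In these 2.54 Mb, without the chromosome 9 chain, Stat5a stood at 1.45 (1.4 to 1.5), 1.26 (1.23 to 1.29) and 1.29 (1.26 to 1.32) times IgG, and Stat5b at 1.14 (1.11 to 1.18), 1.43 (1.40 to 1.46) and 1.49 (1.46 to 1.53). In the flanks 10 to 50 kb beyond the chains, treated in the same way, the ratios were 1.18, 1.13 and 1.05 for Stat5a and 1.06, 1.18 and 1.17 for Stat5b. Within 10 kb of single regions they were 1.09, 1.08 and 1.02, and 1.01, 1.10 and 1.07. The intervals of the chain interiors lay above those of the flanks and of the surroundings of single regions in all 6 libraries. Interior bases lie closer to members than the flanks do, so distance was not matched. At 0.5 to 1 kb outside the chains, Stat5b after 2 rounds stood at 1.28 RPM per kb with IgG at 0.759, against 1.12 and 0.747 inside. Stat5a at 8 h stood at 0.743 with IgG at 0.523, against 0.767 and 0.529 inside. At 13 h Stat5a stood at 0.731 with IgG at 0.646, against 0.764 and 0.609 inside. A difference at like distance was not tested. IgG itself was higher in the interiors, at 0.529, 0.609 and 0.747 RPM per kb against 0.433, 0.474 and 0.542 in the flanks. The part of this in the excess was not tested.

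Beyond the outer edge of the chains the level fell off gradually. Stat5b after 2 rounds stood at 1.28 RPM per kb at 0.5 to 1 kb from the edge, 0.727 at 10 to 15 kb and 0.588 at 40 to 50 kb. Around single regions it stood at 0.829, 0.478 and 0.456 at the same distances. IgG of that stage stood at 0.759, 0.575 and 0.525 around dense chains and at 0.643, 0.473 and 0.463 around single regions. Stat5a at 8 h stood at 0.743, 0.573 and 0.481 around dense chains and at 0.570, 0.428 and 0.416 around single regions. The surroundings of dense chains were thus higher in every library, the IgG controls included.

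**Figure D5:**
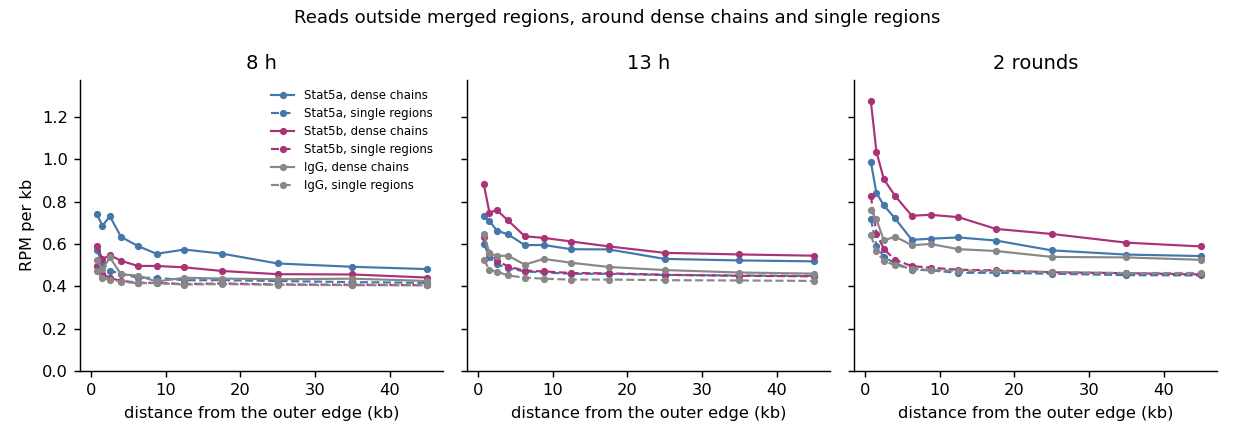
RPM per kb against distance from the outer edge of dense chains (solid lines) and single regions (dashed lines) at each stage, outside all merged regions and 500 bp around them. Stat5b after 2 rounds falls from 1.28 to 0.588 RPM per kb around dense chains, and IgG is also higher around dense chains (0.525 at 40 to 50 kb) than around single regions (0.463).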

How the data were processed

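Per the file names and values, the authors deposited mapped reads for 9 libraries and peak lists for the 6 ChIP libraries as positions in mm8 (unit: other, start and end in bp), with no score or height. Aligner, caller, threshold and any use of IgG in calling: not given in the sources used here, as for how the 22 lanes named by the labels were joined. Most reads were 25 bp long. In 4 libraries 38.0% to 77.3% were 24 bp long, and their starts were moved by 1 bp.

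From these files, peaks were joined where they overlapped by 1 bp, and a region was left out as heaped when a library with 20 or more reads had over 50% of them on 1 start and strand (56 regions, 19 of them in 2 or more lists). Files were read as BED, and starts are given 1-based. A read was counted where its 5′ end fell and scaled to all reads of its library. Intervals at 95% are exact conditional (Clopper-Pearson) for ratios and Wilson for shares. P-values were not computed, since each group has 1 library. Calls were tested on simulated data with counting error alone, so repeated reads and differences between libraries were not covered. Clusters named are the 10 with the most regions, per stage the 10 highest by reads above IgG, and the 5 with the largest and smallest ratio per antibody and step, of which the text gives examples. Regions named belong to leading clusters or go against a neighbour. The members, lists and rules were chosen with earlier results of these data known. Tools were scipy 1.17.1, pandas 2.3.3 and numpy 2.4.6 under Python 3.11.15, with figures by matplotlib 3.10.9.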

Additional observations from a re-analysis of the deposited data

Results flagged for a closer look

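The 2 antibodies differed in the step from 8 h to 13 h. Summed over all member regions, Stat5a gave a ratio of 0.784 (0.772 to 0.796) and Stat5b one of 2.10 (2.07 to 2.13), so the 1 library pair of each went in opposite directions. The difference was not tested, since each ratio rests on 1 library per stage. Without the chain at the start of chromosome 9 the ratios were 0.745 and 2.30. Over all 16023 kept regions they were 0.851 and 2.10.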

How the results depend on the processing

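The number of members and chains depends on the rule. Against 1330 regions in 208 chains, a gap of 5 kb gave 388 in 64, a gap of 20 kb 3067 in 437, 3 or more lists 345 in 56, and the upper 50% of each list by reads 521 in 82. Without the list of Stat5b after 2 rounds there were 492 regions in 76 chains, and without that of Stat5b at 13 h 863 regions. The lists of Stat5a alone gave 162 regions in 27 chains and those of Stat5b alone 469 in 75. These 2 and the removal of the chain at the start of chromosome 9 were chosen after seeing the data.

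Counts of called members moved with counting and scaling. With each start and strand counted once, 0 members were higher and 4 lower for Stat5a from 8 h to 13 h, and 61 and 3 in the step to 2 rounds. For Stat5b 56 were higher in the first step, and 207 higher and 0 lower in the second. The log2 median ratio over kept regions was -0.19 and 0.49 in the Stat5a steps and 1.17 in both Stat5b steps. Scaling by the median ratio subtracts this value from each log2 ratio. The counts higher and lower were then 8 and 14 in the first Stat5a step, and 66 and 37 in the second. For Stat5b they were 3 and 13, then 44 and 79. With 25 bp reads alone 11 were lower for Stat5a in the first step, and 73 higher and 25 lower in the second. Moving reads 75 bp downstream left 1 higher for Stat5a in the first step, and scaling to reads outside regions left 1 lower for Stat5b in the second. The causes were not tested.

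Between the regions of chains, Stat5b over IgG at 8 h was 1.0 with IgG pooled over the 3 stages, and no longer stood above 1, while without the chain at the start of chromosome 9 it was 1.04 (1.02 to 1.06). Of 105 alternatives over 21 results, 35 moved the value, 1 was weaker and 69 did neither. These 69 were not all unchanged. Without the list of Stat5a after 2 rounds there were 911 members, against 1330. Scaled to reads outside regions, 409 members were higher for Stat5b in the second step, against 312. Stat5a over IgG between regions at 8 h went from 1.62 to 1.36 with pooled IgG. The 69 also include Stat5b counts with 25 bp reads alone, which could not change because those libraries held no other reads. Higher and lower calls are separate results here, and scaling by the median ratio turned the balance of Stat5b calls from higher to lower in both steps. Depth limits single regions most at 8 h, where Stat5a had 3130228 reads. No paired analysis was possible because each antibody and stage has 1 library.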
